A study of Mus musculus with 16 samples.

Results

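THOC5 peaks at the 3' ends of transcripts were taken from 8 lists of peaks, made from RNA that was precipitated with THOC5 out of primary mouse vascular smooth muscle cells. A peak was included if its deposited annotation placed it in a 3' UTR or at a transcription termination site (TTS), and its gene was that of the RefSeq transcript named in the annotation. There were 2168 such peaks among 28998, of which 1881 were labelled 3' UTR and 287 TTS, and they named 1059 of the 4250 genes with any peak. The 4 conditions, with 2 lists each, were THOC5 overexpression in osteogenic medium (THOC5 OE), GFP overexpression in osteogenic medium (GFP OE), wild-type cells in osteogenic medium (Pi) and wild-type cells in growth medium (Ctrl). The labels give the genotype of the GFP OE cells as WT, name no vector or promoter, and do not say whether replicates are separate cultures, so that every p below measures only the spread between these samples. The 8 input samples were not analysed here. The design asked what THOC5 binds with and without high phosphate (Pi), the treatment that drives these cells towards an osteogenic state.

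The 3' UTR is the stretch of an mRNA after the stop codon, where RNA-binding proteins and microRNAs act on stability, localization and translation. THOC5 belongs to the THO complex, the core of the TREX complex, which couples transcription and processing of mRNA to its export from the nucleus. Cleavage and polyadenylation form the end of the 3' UTR before export. A peak marks a place where RNA was recovered, not a contact mapped to a base, and it was not corrected for the level of the transcript. A transcript without a peak may still be bound, or may be scarce in that sample, and these cannot be told apart. Thoc5 itself had no 3' end peak in any list.

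The positions of 3' UTR and TTS peaks along their genes follow largely from the labels, so they describe the peaks and test neither label. Of the 1881 3' UTR peaks, 1880 lay in the last exon of their transcript, which had a median of 21 exons. Among the 1604 whose gene has a known strand, the peak centre lay a median of 994 bp before the annotated end of the gene, with 78.5% within 2000 bp and 4.24% more than 5000 bp away. The medians of single lists ran from 890.5 bp in GFP OE replicate 2 to 1081.5 bp in Pi replicate 2. TTS peaks lay mostly past the end of the gene that names them, in 68.2% of the 245 with a known strand. The TTS label itself runs from 100 bp before to 1000 bp after a transcript end, so most of its span lies past the end. The centre of 240 of 287 TTS peaks (83.6%) fell inside another gene, against 95 of 1881 3' UTR peaks (5.05%). Srebf1, for example, which encodes a regulator of sterol synthesis, names a TTS peak that lies in Rai1, and Msto1 names one in Gon4l. A TTS peak is therefore given below with the gene in which it lies.

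**Figure D1:**
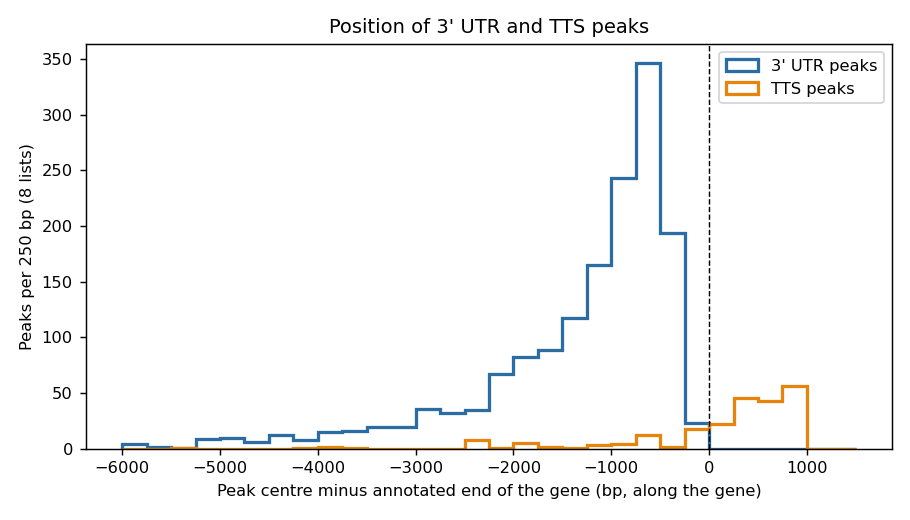
Number of peaks per 250 bp, over all 8 lists, against the distance of the peak centre from the annotated end of its gene (bp along the gene, negative before the end), for 3' UTR peaks and TTS peaks of genes with a known strand. The 3' UTR peaks gather in the last 2000 bp before the end, around a median of 994 bp, and 68.2% of TTS peaks lie past it.

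MicroRNA genes supplied 24 of the names and 44 of the peaks, all TTS peaks with their centres inside other genes. In 14 of the 24 the peak occurred in 1 list. Of the 19 microRNA genes with a RefSeq hairpin, 6 had a peak that reached the hairpin, in 7 peaks altogether, and their mature sequences are shown because these are the microRNAs whose own RNA could lie under a peak. The sequences are those of RefSeq on GRCm38.p6, with the seed (bases 2 to 8) in capitals.
miR-1896, chr13:21445209-21445230, plus strand: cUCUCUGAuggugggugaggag
miR-5101, chr12:75909154-75909175, plus strand: uUUGUUUGuuuugcugaugcag
miR-6916-5p, chr10:128512005-128512025, minus strand: cAGGAGGAuggagaugaguca
miR-6989-5p, chr19:6346485-6346506, plus strand: uUGGGGACagaggcacaggaug
miR-6989-3p, chr19:6346523-6346544, plus strand: uGUCCACUgucucuggucccag
miR-7083-3p, chr9:21809941-21809960, minus strand: uCUGCUCUccuggaccccag
miR-7083-5p, chr9:21809975-21809995, minus strand: uCGGGGCUggacaagcagaga
miR-8098, chr14:62837797-62837817, plus strand: gCUAUGGUcgcuggcucccaa
No seed was shared among these sequences. Mir5101, inside Syne2, was reached in both Ctrl lists, at percentiles 86.6 and 89.9, and had no peak in the other 6. Mir6916, Mir6989 and Mir8098 were reached in Pi replicate 2, and Mir1896 and Mir7083 in Ctrl replicate 2. A peak that covers a hairpin does not separate the microRNA precursor from the host transcript.

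The lists held 300 and 310 3' end peaks for THOC5 OE cells, 296 and 157 for GFP OE cells, 200 and 311 for Pi cells, and 210 and 384 for Ctrl cells. They made up 6.50% and 7.31% of all peaks for THOC5 OE, 7.98% and 6.10% for GFP OE, 7.50% and 8.20% for Pi, and 8.07% and 8.01% for Ctrl. Both THOC5 OE lists lay below all 4 Pi and Ctrl lists and both GFP OE lists below both Ctrl lists, while the other ranges overlapped. The share averaged 6.90% ± 0.576 in THOC5 OE and 7.04% ± 1.32 in GFP OE (SD, n = 2 each), a difference of -0.136 percentage points (exact permutation p = 1). It averaged 7.85% ± 0.493 in Pi and 8.04% ± 0.0419 in Ctrl (SD, n = 2 each; exact permutation p = 1). With 2 lists against 2 the smallest p that can be reached is 0.333, so none of these comparisons could pass 0.05. Conditions were then pooled by vector, although only Ctrl was in growth medium. In the 4 lists of cells made to overexpress a protein (THOC5 OE and GFP OE, called vector-carrying) the share was 6.97% ± 0.837, against 7.94% ± 0.306 in the 4 unmodified lists (Pi and Ctrl). That difference of -0.972 percentage points did not pass the test (two-sided exact permutation p = 0.0571, n = 4 each, adjusted p = 0.197 over 14 tests), and it depended on the lists and peaks used. Without GFP OE replicate 1 the unadjusted p was 0.0286, while the difference was 0.155 for peaks at or above the median score of their list (exact permutation p = 0.8), -0.185 with every list cut to the length of the shortest (exact permutation p = 0.886) and -0.435 above a common score of 29.0 (exact permutation p = 0.429).

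The 3' end peaks of vector-carrying cells stood higher in their lists than those of unmodified cells. Peaks were ranked by the authors' peak score within each list, as a percentile in which 100 is the strongest. The median percentile of 3' end peaks was 66.4 and 67.4 for THOC5 OE, 61.0 and 67.9 for GFP OE, 56.4 and 48.8 for Pi, and 50.8 and 55.3 for Ctrl. That of all other peaks was between 48.8 and 49.8. It lies near the middle by construction, since the other peaks make up most of every list. The 3' end peaks were above the others by 16.5 ± 3.35 percentile points in the 4 vector-carrying lists and by 3.25 ± 3.79 in the 4 unmodified lists (SD). The ranges, 11.6 to 18.7 and -0.936 to 7.10, did not overlap. The difference of 13.3 points gave the smallest p that 4 against 4 allows (exact permutation p = 0.0286) and did not pass after adjustment over 14 tests (adjusted p = 0.133). These groups of 4 pooled THOC5 OE with GFP OE and Pi with Ctrl, and of these conditions only Ctrl was in growth medium. THOC5 OE exceeded GFP OE by 2.81 points (exact permutation p = 1), and Pi and Ctrl differed by -0.328 points (exact permutation p = 1). GFP OE exceeded Pi by 12.1 points without overlap (exact permutation p = 0.333, the smallest possible).

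**Figure D2:**
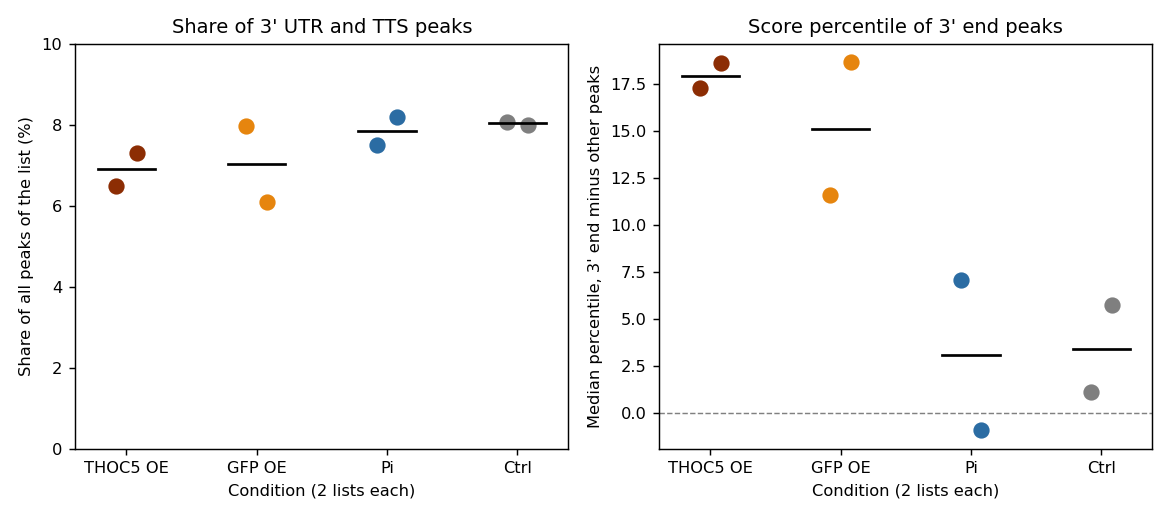
Share of 3' end peaks among all peaks of a list (left, %) and median percentile of 3' end peaks minus that of all other peaks of the list (right, percentile points), by condition. Each point is 1 list and each bar the mean of 2 lists; on the right all 4 THOC5 OE and GFP OE lists lie at 11.6 or above and all 4 Pi and Ctrl lists at 7.10 or below.

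Exon peaks gave a closer comparison than all other peaks, since exon and 3' UTR peaks both lie in mature mRNA. The median percentile of exon peaks was 64.6 to 66.7 in the vector-carrying lists and 61.2 to 63.0 in the unmodified lists, which did not overlap, so exon peaks were split the same way by 3.46 points. Non-coding peaks were higher by 12.7 points in the vector-carrying lists, with overlap (44.4 to 67.2 and 37.3 to 54.3), against 12.9 points for 3' end peaks themselves, so the higher rank was not particular to 3' ends. The 3' end peaks differed from exon peaks by 1.34 and 1.44 points in THOC5 OE, by -3.60 and 1.26 in GFP OE, by -4.79 and -13.5 in Pi and by -12.2 and -6.58 in Ctrl. They were thus near the exon peaks in vector-carrying cells, at 0.112 ± 2.47 points, and below them in unmodified cells, at -9.28 ± 4.25 (SD, n = 4 each; exact permutation p = 0.0286, again the smallest possible, adjusted p = 0.133). Over all 8 lists 3' end peaks exceeded all other peaks by 9.89 ± 7.84 points, in 7 of 8 lists (exact sign-flip permutation p = 0.0156, n = 8, adjusted p = 0.133), but differed from exon peaks by -4.58 points, with 3 of 8 lists above (exact permutation p = 0.0703, n = 8, adjusted p = 0.197). The share of 3' end peaks above percentile 90 of their list was 16.3% and 18.7% for THOC5 OE, 15.2% and 22.3% for GFP OE, 10.5% and 8.68% for Pi, and 10.5% and 11.5% for Ctrl. Another measure moved with the same split. The mean step between the 11 lowest distinct scores of a list was 0.280 to 0.350 in the vector-carrying lists and 0.730 to 1.58 in the unmodified lists. No source used here says what a step stands for. With only peaks at or above a common score of 29.0 the difference was 14.7 points (exact permutation p = 0.0286, n = 4 each). The labels give no batch, so vector and any other difference between these sets of samples cannot be told apart.

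The difference also appeared gene by gene. Of 46 genes with a 3' end peak in at least 3 vector-carrying and 3 unmodified lists, 32 (69.6%) had every vector-carrying percentile above every unmodified one, and 0 had the opposite. Among the 266 genes with exon peaks in as many lists the same count was 87 (32.7%), with 1 (0.376%) the other way. Each percentile is that of the best peak of the gene in the list. For exons it need not come from the same exon in every list, so the measures are not fully alike. With every list cut to its 2572 strongest peaks, the number of the shortest list, the counts were 13 of 42 (31.0%) at 3' ends and 36 of 231 (15.6%) in exons. Genes are not independent replicates, and these counts describe the lists. Agrn, which encodes the heparan sulfate proteoglycan agrin, had percentiles of 99.5 and 99.6 for THOC5 OE, 99.3 and 99.4 for GFP OE, 97.0 and 96.8 for Pi, and 94.5 and 95.2 for Ctrl. Oas2, an interferon-induced enzyme that makes 2'-5' oligoadenylates from double-stranded RNA, differed most, by 64.5 points between the medians. It stood at 96.6 and 97.1 in THOC5 OE and 97.7 and 97.8 in GFP OE, against 41.7 and 32.9 in Pi and 3.73 in Ctrl replicate 2, with no peak in Ctrl replicate 1. Among the next genes, a predicted gene passed over, were Tepsin with 29.5 points, Adgrg2 with 21.4, the clock gene Per2 with 20.4 and the nuclear envelope protein gene Syne2 with 18.3.

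**Figure D3:**
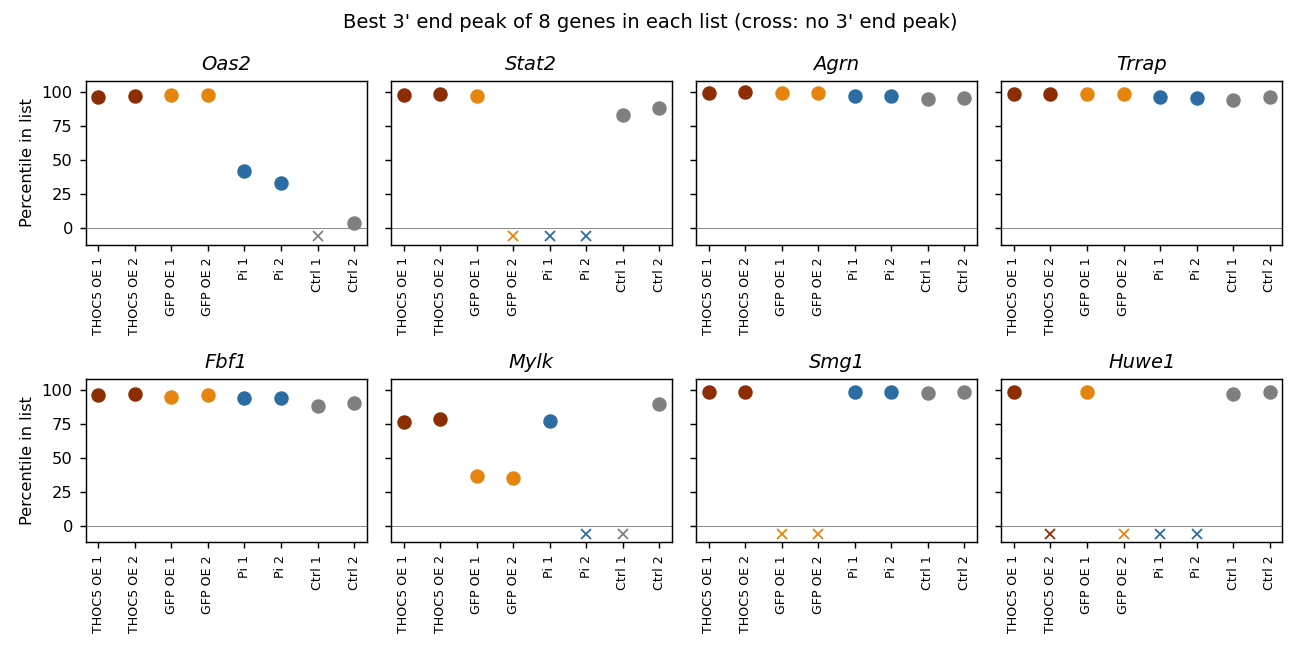
Percentile of the best 3' end peak of 8 genes in each of the 8 lists (100 is the strongest peak of the list); a cross below the line marks a list without a 3' end peak of that gene. Oas2 is above 96 in all 4 vector-carrying lists and at 41.7 or below in the unmodified lists, Agrn and Trrap are above 94 in every list, and Smg1 lacks the peak in both GFP OE lists.

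A 3' end peak in all 8 lists was found in 14 of 1059 genes (1.32%), against 9.51% of genes for a peak of any class and 6.63% for an exon peak. Most 3' end genes were found in few lists, with 601 in 1 list, 201 in 2 and 107 in 3. By position, 59.1% of the 1112 sites whose strongest peak was a 3' end peak were found in 1 list, against 45.9% of 3615 exon sites and 48.5% of 6837 intron sites. Sharing between replicates depended on rank: 55.6% to 95.5% of 3' end peaks above percentile 90 of a list overlapped a peak of the other replicate, against 6.21% to 34.8% of those at percentile 50 or below. The genes shared by both replicates were 163 in THOC5 OE, 77 in GFP OE, 62 in Pi and 91 in Ctrl.

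**Figure D4:**
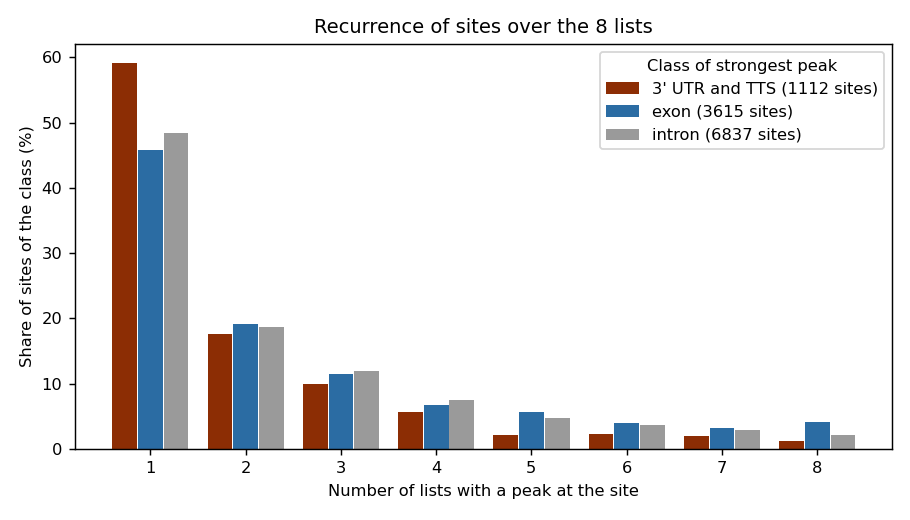
Share of sites (%) found in 1 to 8 lists, for sites whose strongest peak is a 3' end peak (1112), an exon peak (3615) or an intron peak (6837). Sites in 1 list make up 59.1% at 3' ends, 45.9% in exons and 48.5% in introns.

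The strongest of the genes found in all lists encode cytoskeletal, export and muscle proteins. Dst encodes dystonin, a giant linker of cytoskeletal filaments, and its peak at chr1:34307592-34308130 (mm10), in exon 93 of 93, had percentiles of 99.7 and 99.7 for THOC5 OE, 99.5 and 99.6 for GFP OE, 99.4 and 99.4 for Pi, and 99.1 and 99.5 for Ctrl. Zc3h11a, a zinc finger protein of mRNA export, carried its peak at chr1:133621025-133621563, in exon 17 of 17 and 1432 bp before the gene end, at 99.0 or above in every list. Speg, a kinase gene of striated and smooth muscle, ranged from 97.1 in Ctrl replicate 1 to 98.6 in THOC5 OE replicate 2, and Abcc5, an organic anion exporter, from 95.1 in Ctrl replicate 1 to 98.7 in THOC5 OE replicate 2. The medians of the vector-carrying and unmodified lists were 0.27 points apart for Dst, 0.34 for Zc3h11a, 0.61 for Speg and 1.05 for Abcc5, and the lists did not overlap for Dst and Abcc5. Trrap, the scaffold of histone acetyltransferase complexes, had 98.2 and 98.5 in THOC5 OE and 98.3 and 98.6 in GFP OE, against 96.4 and 95.5 in Pi and 94.3 and 96.3 in Ctrl. Tnrc6a, a partner of Argonaute proteins in microRNA silencing, had 97.1 and 97.4 in THOC5 OE and 97.0 and 96.8 in GFP OE, against 95.7 and 95.1 in Pi and 93.6 and 96.1 in Ctrl. Golgb1, the golgin giantin, and Fbf1, a centriole protein, showed the same order, with Fbf1 at 95.8, 96.5, 94.9 and 96.0 in the vector-carrying lists and at 93.9, 93.7, 88.2 and 90.5 in the unmodified ones. In Trrap, Tnrc6a, Golgb1 and Fbf1 all 4 vector-carrying percentiles thus lay above all 4 unmodified ones, as in 69.6% of the 46 genes above. The others were the deubiquitinase Usp48 (84.6 to 91.2), Tnrc18 (81.5 to 87.7), Msto1 (75.9 to 91.8), Ascc2 and Stxbp5.

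**Figure D5:**
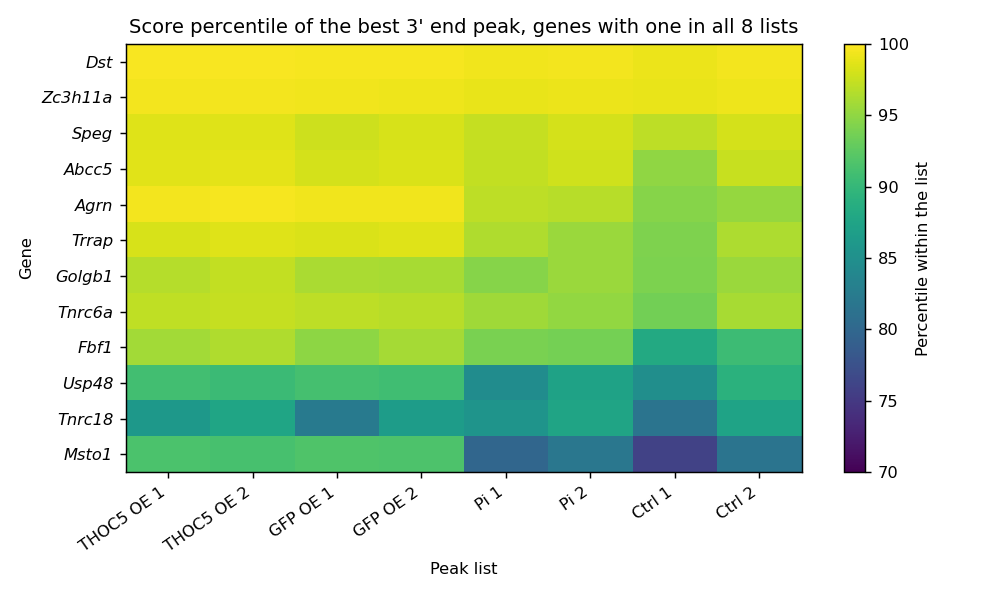
Percentile within the list (colour, 70 to 100) of the best 3' end peak of 12 genes that have one in all 8 lists, by gene (rows) and list (columns). Dst and Zc3h11a are at 99.0 or above throughout, and Agrn, Trrap, Fbf1 and Msto1 are lower in the 4 Pi and Ctrl lists than in the 4 THOC5 OE and GFP OE lists.

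Osteogenic medium was compared with growth medium through the Pi and Ctrl lists. The 3' end peak was found in the 2 Pi lists and missing from both Ctrl lists in 13 of 765 genes (1.7%), against 3.33% for peaks of any class and 2.27% for exon peaks. The reverse held in 28 genes (3.66%), against 3.64% for any class and 4.83% for exon peaks. Both shares were near or below those backgrounds. Of these genes, 8 of the 13 and 11 of the 28 had no peak anywhere in the gene in the lists of the other condition. Lars2, the mitochondrial leucyl-tRNA synthetase gene, led the Pi side with percentiles of 83.7 and 94.0 and no 3' end peak in the other 6 lists. Its peak lay at chr9:123461735-123462174, in exon 22 of 22. Peaks annotated as ribosomal RNA repeats numbered 17 and 28 in Pi, 0 in each of the 4 vector-carrying lists, and 0 and 1 in Ctrl, and their part in this result was not tested. Ampd2, an AMP deaminase gene, had 74.2 and 72.7 in Pi and none elsewhere. The other Pi genes ranked lower, among them Col5a3, a chain of type V collagen, at 32.7 and 47.0 in Pi and 55.1 in GFP OE replicate 2.

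Genes on the Ctrl side reached higher percentiles and mostly had the peak in vector-carrying cells too. Stat2, a transcription factor of type I interferon signalling, had no peak in Pi, against 83.4 and 88.2 in Ctrl, and stood at 97.9 and 98.3 in THOC5 OE and at 97.1 in GFP OE replicate 1. Huwe1, a giant ubiquitin ligase, had no 3' end peak in Pi, against 96.9 and 98.0 in Ctrl, but the gene carried some peak in all 8 lists. Srrm1, a splicing coactivator, had no 3' end peak in Pi, against 87.1 and 91.0 in Ctrl, and 93.3 and 92.3 in THOC5 OE. The 3' end peaks of Cdc42bpb, a kinase acting on the actin cytoskeleton, and of Fnbp4 were likewise absent in Pi and above 94 in Ctrl. Outside the 3' end, Cdc42bpb carried peaks in 7 lists and Fnbp4 in all 8. Mir6948 named a TTS peak inside Acin1, a gene of a splicing-associated protein, with none in Pi, against 98.5 and 99.0 in Ctrl. The same peak stood at 99.6 and 99.6 in THOC5 OE cells and at 99.5 and 99.4 in GFP OE cells. GFP OE cells were the other cells in osteogenic medium that did not overexpress THOC5, and of these genes only Mir6948 had the peak in both their lists. In GFP OE, Stat2, Huwe1, Srrm1 and Fnbp4 had it in replicate 1 but not in replicate 2. Cdc42bpb had it in replicate 2 but not in replicate 1.

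THOC5 overexpression was compared with GFP overexpression in the same medium. The 3' end peak was found in the 2 THOC5 OE lists and missing from both GFP OE lists in 48 of 594 genes (8.08%), against 6.9% for peaks of any class and 7.86% for exon peaks. The reverse held in 12 genes (2.02%), against 1.18% for any class and 1.55% for exon peaks. These shares were close to the backgrounds, and GFP OE replicate 2 had the fewest 3' end peaks of all lists. Of the 48 genes, 18 had no peak of any class in GFP OE and 21 had no 3' end peak in any other list. Irak1, a kinase downstream of interleukin-1 and Toll-like receptors, had percentiles of 92.7 and 93.1 in THOC5 OE and no 3' end peak in the other 6 lists. Dlg5, a polarity scaffold, had 89.5 and 90.4, and Usp7, a deubiquitinase of the MDM2 and p53 pathway, had 88.9 and 89.9, again in THOC5 OE only. Outside the 3' end, Dlg5 carried peaks in all 8 lists and Usp7 in 5. Smg1, the kinase of nonsense-mediated decay, led by rank, with 98.4 and 98.5 in THOC5 OE and none in GFP OE. It also stood at 98.2 and 98.5 in Pi and at 97.5 and 98.5 in Ctrl, so that GFP OE was the condition that lacked the 3' end peak. Outside the 3' end, Smg1 carried peaks in all 8 lists. Its 3' end peak lay at chr7:118134785-118135323, 3746 bp before the gene end in exon 63 of 63. The cytoskeletal crosslinker gene Specc1l likewise lacked the 3' end peak in GFP OE and had it in 5 of the other 6 lists. Outside the 3' end it carried peaks in 7 of the 8 lists.

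On the GFP OE side, Limk2, a kinase of the actin regulator cofilin, had percentiles of 79.9 and 82.9 in GFP OE and no 3' end peak in any other list. Ankrd26 had 41.3 and 41.5 in GFP OE alone. Cluh, which binds mRNAs of mitochondrial proteins, had 88.1 and 90.5 in GFP OE and 86.9 in Pi replicate 2, and Alpk1, an innate immune kinase gene, had 95.9 and 95.1 in GFP OE and over 94 in Pi replicate 2 and Ctrl replicate 2. Of these 4 genes, Limk2 and Ankrd26 had the 3' end peak in GFP OE only. Outside the 3' end, Limk2 carried peaks in 2 lists, Ankrd26 in 6, Cluh in 3 and Alpk1 in 8.

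The vector control was compared with unmodified cells in the same medium. The 3' end peak was found in the 2 GFP OE lists and missing from both Pi lists in 33 of 680 genes (4.85%), against 3.81% for any class and 4% for exon peaks, and found in Pi replicates 1 and 2 but never in GFP OE in 26 genes (3.82%), against 6.47% and 5.17%. Morc2a, a chromatin silencing ATPase, had 91.2 and 93.2 in GFP OE, no 3' end peak in Pi, and 91.6 and 92.1 in THOC5 OE. Zfp462, a zinc finger protein gene, had 91.2 and 91.6 in GFP OE, no 3' end peak in Pi, and 91.4 and 92.2 in THOC5 OE. Both also had the peak in Ctrl replicate 2. On the other side, Sema4g, a semaphorin gene, had no 3' end peak in GFP OE, against 88.0 and 89.5 in Pi, and had 80.5 and 85.2 in Ctrl. The 3' end peaks of Zmiz2 and of Nod1, an intracellular sensor of bacterial peptidoglycan, were also absent from GFP OE and present in both Pi and both Ctrl lists.

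Presence in all 4 vector-carrying lists and none of the unmodified ones was rare, at 5 of 1059 genes (0.472%), against 1.2% for any class and 0.835% for exon peaks. These genes, named whatever their rank, were Ccdc171, Cntln, Dact1, Gramd1c and Mir7026, the last inside Ep400. The reverse held for Arhgap28, Ksr1, Sema4g and Srebf1, 4 genes (0.378%), against 0.659% for any class and 0.344% for exon peaks. The vector-carrying lists thus stood above the unmodified ones in the rank of many shared 3' end peaks, while few genes were set apart by presence. The rank difference over all 3' end peaks did not pass adjustment (exact permutation, adjusted p = 0.133). With lists cut to equal length, 13 of 42 shared genes (31.0%) were fully separated, against 36 of 231 (15.6%) in exons.

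Genes of smooth muscle identity and of calcification with any peak were too few for their 3' end counts to be set apart from those of all genes. Of 7 contractile genes with any peak, 2 (28.6%) had one at the 3' end, against 24.9% of all 4250 genes. Mylk, the myosin light chain kinase gene, had percentiles of 76.0 and 78.4 in THOC5 OE and 36.5 and 35 in GFP OE, and was found in Pi replicate 1 at 77.0 and in Ctrl replicate 2 at 89.5. Mylk was thus higher in both THOC5 OE lists than in both GFP OE lists. The TTS peak named for Tagln, in Ctrl replicate 2, lay in Pcsk7. Of the osteochondrogenic genes 1 had a peak and 0 had one at the 3' end, and of 3 phosphate and calcification genes with a peak, Ank, a gene for pyrophosphate transport, had one in Pi replicate 2 at percentile 35.9. Of 19 extracellular matrix genes with a peak, 2 had one at the 3' end, Col5a3 and Col5a1, and of 7 TGF-beta and BMP genes 0 had one. Markers of other cell types had too few peaks to compare: among those with any peak, a 3' end peak was found for 0 of 1 endothelial, 1 of 1 fibroblast (Pdgfra, in Pi replicate 1) and 1 of 1 leukocyte genes (the TTS peak named for Csf1r, which lies in Hmgxb3). Peaks are not levels, and these counts do not measure how much of another cell type a sample held.

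Genes of RNA export, decay and 3' end formation were counted against the 24.9% of all genes with a peak, and no difference among them was tested. Of 17 genes of the THO complex and mRNA export with any peak, 6 (35.3%) had one at the 3' end, led by Zc3h11a. Xpo1, the nuclear export receptor CRM1, had it in THOC5 OE replicate 1 at 85.8 and GFP OE replicate 1 at 90.5, and Thoc2, the largest THO subunit, in GFP OE replicate 1 at 84.7. Thoc2 had some peak in all 8 lists, so its binding lay mostly outside the 3' end. Of 21 mRNA decay genes 4 (19.0%) had a 3' end peak (Tnrc6a, Smg1, Smg5 and Pan2), and of 13 cleavage and polyadenylation genes 0 had one. Of 19 RNA-binding and splicing genes 2 (10.5%) had one, Srrm1 and Sf3b1.

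Genes of ubiquitin transfer, membrane trafficking, the cytoskeleton and chromatin had 3' end peaks at shares above that of all genes, a difference that was not tested. Of 22 ubiquitin ligase and deubiquitinase genes with a peak, 9 (40.9%) had a 3' end peak, of 24 membrane trafficking genes 9 (37.5%), of 26 cytoskeleton genes 9 (34.6%), and of 32 chromatin genes 10 (31.2%), against 24.9% of all genes. Mycbp2 and Ubr2, both ubiquitin ligases, had the peak in 7 lists each, at up to 94.6 for Mycbp2 and at 91.8 to 94.0 for Ubr2. Syne1, a nuclear envelope linker gene, had it in 7 lists, at 80.3 to 84.6 in the vector-carrying lists and 65.0 to 76.0 in the 3 unmodified lists that held it. Kmt2d, a histone methyltransferase gene, had it in Pi replicate 2 and Ctrl replicate 2 at 98.3 each. Genes with a 3' end peak were long, with a median span of 49785 bp over 1023 protein-coding genes, against 17149 bp for all protein-coding genes and 59648 bp for those with an exon peak.

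Many 3' end peaks were the only peak of their gene. Another peak in the same gene accompanied 64.4% and 58.8% of 3' end genes for THOC5 OE, 56.8% and 47.1% for GFP OE, 32.3% and 33.1% for Pi, and 41.0% and 44.0% for Ctrl. The vector-carrying lists were all above the unmodified ones. Over all lists, 409 of 1059 genes (38.6%) had 3' end peaks and no other peak, 117 of these in at least 2 lists and 13 in at least 5. The same shares were not computed for genes with exon or intron peaks. Neither they nor the split between lists can therefore be read as particular to 3' ends.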

How the data were processed

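RNA precipitated with THOC5 was measured in 8 of 16 samples, 2 per condition, and the other 8 were inputs. The submitters' processing notes list, without roles, SAMtools, MACS2, Bowtie2 and FastQC, and give mm10 as the build. Peaks were annotated by annotatePeaks.pl against mm10, per the file headers, which also name condition and replicate of each list in abbreviated form. The peak score is the authors' value in the deposited lists. Not given in the sources used here are its scale, the caller's settings and the use of inputs, and read depth is unknown. Scores therefore served as ranks: a percentile is the rank within the list, 100 being the strongest. Each deposited list has 1 peak width, and peaks carry no strand.

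Members, gene lists and tests were chosen with earlier results of these data known, and the interferon list, the percentile comparisons between conditions, the comparisons with exon or intron peaks and the common score floor were added after values had been seen. RefSeq genes (GRCm38.p6) gave symbols for 1065 of 1066 transcripts. A gene was called in a comparison if it had a 3' end peak in the 2 lists of one condition but in none of the other's, out of genes with one in any of the 4 lists. Sites join peaks that overlap by at least 1 base. Tests were two-sided exact permutations over lists, or sign flips over 256 patterns for differences within a list, with Benjamini-Hochberg adjustment over 14 tests at 0.05, and were tested on simulated data. Genes named are up to 12 found in all lists by lowest percentile, up to 8 per comparison and direction by the lower percentile, up to 4 per gene list, the 5 with most 3' end sites and Thoc5, passing over predicted symbols. Some genes that these rules name are not reported here. Ascc2, Stxbp5, Oas2, Tepsin, Adgrg2, Per2, the genes set apart by vector, the microRNAs that a peak reached and the genes in which a TTS peak lies were named after their values were seen. Alternatives were a score floor at each list's median, lists cut to 2572 peaks, 3' UTR or TTS annotations alone, the deposited nearest gene, sites in place of genes, mean percentiles, omission of each list and a replicate block. Python 3.11.15, pandas 2.3.3, numpy 2.4.6 and scipy 1.17.1 were used.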

Additional observations from a re-analysis of the deposited data

Results flagged for a closer look

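In GFP OE replicate 1 the median percentile of 3' end peaks differed from that of exon peaks by -3.60 points, while the other 3 vector-carrying lists lay between 1.26 and 1.44 points above, so that this list stood apart within its group of 4. GFP OE replicate 2 had 157 3' end peaks, against 296 to 310 in the other 3 vector-carrying lists. It was also the shortest list, with 2572 peaks. A gap of this size is met by chance in about 1 of 20 groups, and 12 groups of 4 lists were examined.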

How the results depend on the processing

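The difference of 13.3 percentile points between vector-carrying and unmodified lists kept its sign and its unadjusted exact permutation p of 0.0286 under all alternatives run except TTS annotations alone (9.32 points, p = 0.257), and was 11.9 to 14.9 points when single lists were left out. The excess of 3' end peaks over all other peaks was 8.64 to 11.4 points when single lists were left out, and turned to -4.58 points against exon peaks. The share of vector-carrying minus unmodified lists was 0.155 percentage points for peaks at or above the median score, and -1.31 to -0.683 without single lists. For THOC5 OE minus GFP OE the share turned to 0.297 (median score), 0.933 (lists cut to the shortest) and 0.0166 (common score floor) and ranged from -1.07 to 0.800 without single lists, turning without THOC5 OE replicate 1 and without GFP OE replicate 1. Its percentile difference turned to -0.783 (median score) and -0.316 (shortest list), with a range from -0.713 to 6.34. For GFP OE minus Pi the share turned to 0.0451 (median score), ranging from -1.75 to 0.126, and the percentile difference to -1.17 (TTS alone), ranging from 8.04 to 16.1. For Pi minus Ctrl the share turned to 0.0566 (3' UTR alone), ranging from -0.536 to 0.161, and the percentile difference to 5.08 (TTS alone), 0.862 (means) and 0.256 (exon peaks), ranging from -4.35 to 3.69. The cause of these turns was not tested, and no p among them was below 0.257 except that against exon peaks (p = 0.0703, exact permutation).

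Called genes at or above the median score numbered 5 (Pi, not Ctrl), 16 (Ctrl, not Pi), 29 (THOC5 OE, not GFP OE), 5 (GFP OE, not THOC5 OE), 19 (GFP OE, not Pi) and 12 (Pi, not GFP OE), and with TTS annotations alone 1, 8, 2, 1, 7 and 4, with 2 genes in all lists, since fewer peaks enter. THOC5 OE genes absent from GFP OE were 31 with lists cut to the shortest. With 1 list left out, so that a single list decides for its condition, the counts ran from 16 to 180, 41 to 231, 70 to 146, 17 to 125, 38 to 189 and 33 to 215 in the same order, and genes in all remaining lists from 14 to 21. Of the 88 genes named by rule, 16 moved by over 1.5 times in their number of lists with the median score, 4 with the shortest list and 12 with 3' UTR annotations alone. The labels do not say that replicate numbers pair the lists. By its construction a replicate block with 2 pairs cannot change a mean difference or a call, so it tests neither. It gave an exact permutation p of 0.5 for the 12.1 points of GFP OE minus Pi.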

Other observations

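Interferon response genes, a list of 48 added after Oas2 and Stat2 had been seen, had a peak of any class in 20 genes and a 3' end peak in 9 (45%), against 24.9% of all genes with a peak. Rnf213, a giant ubiquitin ligase induced by interferon, had its 3' end peak in THOC5 OE at percentiles 99.2 and 99.4 and in GFP OE replicate 1 at 99.2, with none in the other 5 lists, although the gene carried some peak in all 8. Parp14, a mono-ADP-ribosyltransferase gene, had it at 64.3 in THOC5 OE replicate 1, 63.2 in GFP OE replicate 1 and 30.7 in Pi replicate 1. Tyk2, a kinase of interferon receptors, had it at 79.4 and 77.9 in THOC5 OE, 80.2 in GFP OE replicate 2, 72.8 in Pi replicate 1, and 58.6 and 71.0 in Ctrl. Irf9, Ifnar1, Oas1c and Nlrc5 had it in 1 list each. In Stat2, Oas2, Parp14 and Tyk2 every vector-carrying percentile exceeded every unmodified one, for Parp14 over 2 lists against 1. The same held for 32 of 46 genes (69.6%) with a 3' end peak in at least 3 lists of each kind, so it was not particular to interferon genes, and the level of these transcripts was not analysed here.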
